A study of Mus musculus with 6 samples.

Results

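The genes described here are 37 genes of the skeletal muscle sarcomere, of its calcium handling and of its energy supply, measured by bulk RNA-seq in mouse tumors. They were taken by symbol from a table of 33965 genes, and all 37 had a row in it. The samples were 6 tumors labelled as MC38, a mouse colon carcinoma line, grown under the skin of the flank of female C57BL/6 mice bought at 6 weeks of age. In the PBS group, 3 tumors came from mice given the buffer PBS. In the GB2 group, 3 tumors came from mice given GB2, a prodrug in which the STING agonist MSA-2 is joined through a disulfide bond to artesunate, described by the study as a TREM2 inhibitor. GB2 was designed for injection into a vein, and the labels give no dose for the sequenced tumors. No transgene or gene deletion is named for the hosts. The labels number the tumors 1 to 3 within each group and do not say whether each came from a separate mouse, so p-values measure only the spread between these tumors.

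Skeletal muscle shortens when myosin heads of the thick filament pull on actin of the thin filament. The repeating unit, the sarcomere, is bounded by Z-discs that anchor the thin filaments, and titin spans it as a spring. An electrical signal opens calcium channels, calcium binds troponin and frees the actin for myosin, and a pump returns the calcium to the sarcoplasmic reticulum. Fast and slow fibres build this machine from different members of the same families, such as Myh4, Myh1 and Myh2 in fast fibres and Myh7 in slow ones. A flank tumor lies on the thin muscle sheet of the skin and the muscle of the body wall, both tissues of the host.

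Total counts per library ran from 64764405 to 83690056, and about 4 deposited counts stood for 1 read pair. The smallest GB2 library exceeded the largest PBS library. Levels of a gene across tumors are given as CPM (counts scaled to the library total after TMM), and levels of different genes are compared as FPKM (fragments scaled to transcript length and library total, from the authors), which accounts for length. Of the 37 genes, 36 passed the filter on low counts and were tested among 19602 genes. The other was Myl3, the slow myosin light chain, with counts of 0 in 5 tumors and of 8 in GB2 tumor 2. That lies under the 12 counts (3 read pairs) that a count of 0 allows, and these limits cover counting error only.

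The label of the tumors was checked against markers, and the values went against it in all 6 tumors. Epithelial markers of a carcinoma were low, with Epcam at 0.0744 to 0.456 FPKM, Krt8 at 0 to 1.17 FPKM and Krt18 at 0.175 to 1.60 FPKM, and Cdx2, the regulator of gut epithelium, was at 0 in 5 tumors. Genes known for pigment cells were instead among the abundant ones. Pmel, of the pigment granule, was at 735 to 1840 FPKM, and the pigment enzymes Tyrp1, Dct and Tyr were at 734 to 1780, 690 to 1170 and 67.7 to 178 FPKM. Sox10, a regulator of neural crest cells, was at 93.0 to 241 FPKM and Mitf, the regulator of pigment genes, at 58.4 to 97.6 FPKM. The pigment genes and Cdx2 were looked up after other values had been seen. Both groups showed these levels, so the comparison of GB2 with PBS is given as labelled, and what cells the tumors hold beyond these values was not tested.

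The muscle genes were measurable in each of the 6 tumors and most stood higher in the GB2 tumors, but no single gene passed the test. Their summed level was 124, 114 and 192 FPKM in PBS tumors and 226, 221 and 210 FPKM in the GB2 tumors. The means were 143 ± 42.8 (SD, n = 3) and 219 ± 8.06 (SD, n = 3), a ratio of 1.53, and the groups did not overlap. PBS tumor 3 stood between the other PBS tumors and the GB2 tumors. The 37 genes made up between 0.0349% and 0.0613% of all FPKM in PBS tumors and between 0.0679% and 0.0726% in GB2 tumors, so muscle transcripts were a small part of each tumor. In bulk tissue, fewer cells of a type and less RNA per cell cannot be told apart.

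A gene was called when edgeR gave an adjusted p under 0.05 and a fold of at least 2. By this rule 0 of the 36 tested muscle genes were called, as were 0 of all 19602 genes (0.00%). With an unadjusted p under 0.05 in place of the adjusted one, 6 muscle genes were higher in GB2 tumors (Actn3, Csrp3, Des, Mb, Tcap and Xirp1) and 0 were lower, where 3.74% of all tested genes were higher and 0.918% lower. Without the limit on fold, 15 were higher, beside 4.69% of all genes. DESeq2 called 4 of them higher, Csrp3, Des, Mb and Tcap, beside 1.80% of all genes, and 0 lower, beside 0.168%. The number at the unadjusted limit with the fold moved to 16 without PBS tumor 3 and to 10 without GB2 tumor 2. Over all genes the number higher moved too, from 733 to between 503 and 950 with 1 tumor left out.

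The direction was shared more widely than the size. The fitted log2 fold change was above 0 in 34 of 36 muscle genes, beside 48.3% of all tested genes, and 35 of all 37 had a higher mean CPM in the GB2 group. The groups did not overlap in 17 genes with GB2 tumors higher, beside 8.61% of all genes, and in 0 genes with GB2 tumors lower, beside 6.68%. In 6 genes it was 1 or more, beside 7.35% of all genes. The median log2 fold change was 0.67 over the 36 muscle genes and -0.02 over all genes tested. These genes belong to a common tissue and their values in a tumor are not independent of each other, but not all moved together. Pearson's r of each gene with the mean of the other tested muscle genes was taken over the 6 tumors. It was lowest for Trim63 (-0.27), Myl2 (-0.21), Pygm (0.01) and Eno3 (0.26). Eno3 and Trim63, at means of 32.8 and 10.9 FPKM, were large parts of the summed level.

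**Figure D1:**
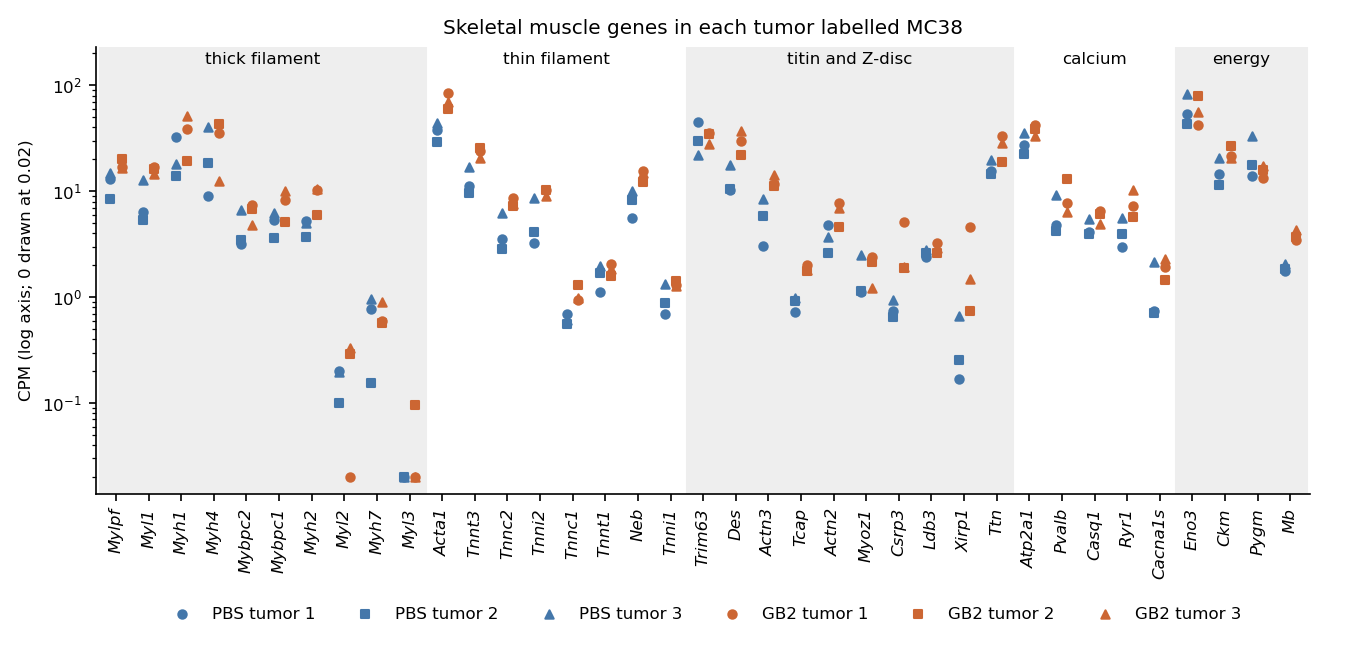
Level of each of the 37 muscle genes in each of the 6 tumors (CPM on a log axis, values of 0 drawn at 0.02), in blocks by role, with PBS tumors in blue and GB2 tumors in orange and the marker shape giving the tumor number. Acta1 shows separate groups, Myh4 and Eno3 show groups that overlap, and Myl3 was at 0 in 5 tumors.

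Myosins and their partners in the thick filament were present in fast-fibre forms and stood moderately higher in GB2 tumors. Of the 9 tested thick filament genes, all 9 had a log2 fold change above 0 (beside 48.3% of all genes), with a median of 0.56. In 3 the groups did not overlap (Myl1, Mylpf and Myh2), beside 8.61% of all genes. Myh1, the heavy chain of fast IIx fibres, was at 32.8, 13.9 and 17.9 CPM in PBS tumors and at 38.3, 19.4 and 51.0 CPM in GB2 tumors. Myh4, the heavy chain of the fastest IIb fibres, was at 9.0, 18.6 and 40.2 CPM and at 35.8, 43.6 and 12.5 CPM. The groups overlapped for both, and neither difference exceeded its spread, at a log2 fold change of 0.75 ± 0.43 (SE) for Myh1 (adjusted p = 0.757, edgeR) and 0.44 ± 0.61 for Myh4 (adjusted p = 0.874, edgeR). For Myh4 it was 1.15 without PBS tumor 3 and 0.07 without PBS tumor 1, and for Myh1 it was 1.20 without PBS tumor 1.

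The same 2 heavy chains exchanged places from tumor to tumor. As a share of the summed FPKM of Myh4, Myh1, Myh2 and Myh7, Myh4 made up 20.0%, 53.2% and 64.9% in PBS tumors and 44.1%, 64.7% and 17.7% in GB2 tumors. Myh1 made up 69.0%, 37.6% and 27.3% and then 44.7%, 27.3% and 68.7%. One tumor of each group, PBS tumor 1 and GB2 tumor 3, thus had mostly Myh1, while PBS tumors 2 and 3 and GB2 tumor 2 had mostly Myh4. The mean share of Myh4 was 46.0% ± 23.3 (SD, n = 3) and 42.2% ± 23.6 (SD, n = 3), so the spread within a group was far larger than the distance between the groups. Myh2, the heavy chain of IIa fibres, held between 6.78% and 12.7% in every tumor.

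**Figure D2:**
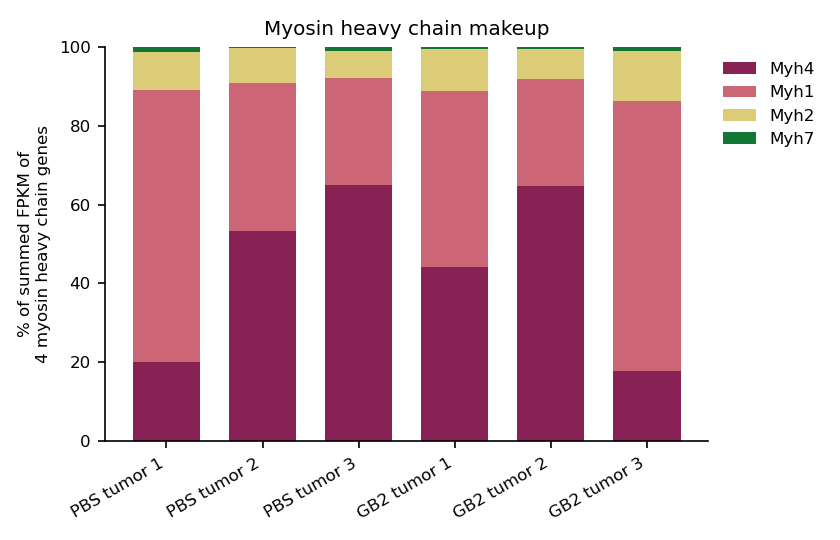
Share of 4 myosin heavy chain genes in their summed FPKM (%), as a stacked bar for each tumor. Myh4 ranged from 17.7% to 64.9% with no order by treatment, and Myh7 stayed at or under 1.17%.

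The promoters of these 2 neighbouring genes and of Acta1, the member with the highest FPKM, are shown because Acta1 has the highest mean FPKM of the list and the other 2 exchange places. Each runs from 250 bases before to 50 after the start given by RefSeq on GRCm38.p6 and is written 5′ to 3′ on the gene's strand, at chr8:123894726-123895025 (minus strand) for Acta1, chr11:67199852-67200151 (plus) for Myh1 and chr11:67237562-67237861 (plus) for Myh4. Capitals mark the CArG box (bound by SRF), TATAAA and the MEF2 site.
Acta1: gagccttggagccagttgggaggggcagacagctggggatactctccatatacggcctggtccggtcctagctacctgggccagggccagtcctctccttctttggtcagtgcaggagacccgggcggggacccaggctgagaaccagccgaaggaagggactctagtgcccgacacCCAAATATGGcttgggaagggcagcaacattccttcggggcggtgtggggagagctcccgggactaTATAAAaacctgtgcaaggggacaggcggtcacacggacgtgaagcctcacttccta
Myh1: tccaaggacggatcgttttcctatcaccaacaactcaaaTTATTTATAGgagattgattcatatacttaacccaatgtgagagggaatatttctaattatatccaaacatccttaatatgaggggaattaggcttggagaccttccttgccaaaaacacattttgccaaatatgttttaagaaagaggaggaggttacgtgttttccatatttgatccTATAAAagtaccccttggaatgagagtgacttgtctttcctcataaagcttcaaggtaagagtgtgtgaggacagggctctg
Myh4: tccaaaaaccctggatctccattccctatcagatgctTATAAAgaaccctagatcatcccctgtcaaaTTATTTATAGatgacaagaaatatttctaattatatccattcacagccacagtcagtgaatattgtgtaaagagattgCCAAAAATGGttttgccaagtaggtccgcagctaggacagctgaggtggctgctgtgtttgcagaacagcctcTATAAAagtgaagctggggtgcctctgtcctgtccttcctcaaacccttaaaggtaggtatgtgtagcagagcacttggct
The CArG box of Acta1 began 73 bases and its TATAAA 7 bases before the start. Myh1 and Myh4 held the same 10 letters of a MEF2 site, 211 and 182 bases before the start, and TATAAA 32 and 31 bases before it. Myh4 held a CArG box 104 bases before the start and a further TATAAA 213 bases before it. Searched on both strands, the CArG box was found in 5 of 38 promoters of the 30 muscle genes that RefSeq's table matched (13.2%) and in 1.63% of all 32851 promoters. The MEF2 site was found in 4 (10.5%), beside 3.19% of all, and TATAAA in 8 (21.1%), beside 13.6%, and in the 2 promoters of Myh1 and Myh4 it also overlapped the MEF2 site on the other strand. The E-box CANNTG of myogenic factors, not marked above, was in 32 (84.2%), beside 72.3% of all. A match gives letters only, and the files hold no measure of binding.

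Myh2 was the heavy chain with separate groups, at 5.23, 3.70 and 4.98 CPM in PBS tumors and 10.3, 5.92 and 10.6 CPM in GB2 tumors, a log2 fold change of 0.95 ± 0.31 (adjusted p = 0.534, edgeR). Mylpf, the regulatory light chain of fast myosin, was the most abundant thick filament gene, at 13.0, 8.37 and 15.0 CPM and at 16.9, 20.0 and 16.7 CPM. Myl1, the essential light chain of fast fibres, was at 6.37, 5.35 and 12.8 CPM and at 17.1, 16.2 and 14.7 CPM. In both light chains every GB2 tumor was above every PBS tumor, and PBS tumor 3 was the PBS tumor nearest to them. Their log2 fold changes were 0.56 ± 0.26 (Mylpf, adjusted p = 0.752) and 0.97 ± 0.35 (Myl1, adjusted p = 0.620) by edgeR. In the table's own positions, Myh2 (67061892 to 67088340), Myh1 (67090878 to 67115401) and Myh4 (67128855 to 67151272) lie side by side on the plus strand of chromosome 11.

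The slow thick filament genes were near the limit of detection, except Mybpc1. Myh7, the slow heavy chain that the heart also uses, was at 0.778, 0.156 and 0.962 CPM in PBS tumors and 0.595, 0.565 and 0.894 CPM in GB2 tumors. Myl2, its regulatory light chain, was at 0.203, 0.0993 and 0.198 CPM and at 0, 0.289 and 0.329 CPM. Neither showed a difference that could be told from its spread, with 95% intervals of the log2 fold change from -1.42 to 1.66 for Myh7 and from -2.52 to 3.12 for Myl2. Mybpc1 and Mybpc2, the slow and fast forms of the myosin-binding protein C that braces the thick filament, were both measurable. Mybpc1 was at 5.36, 3.62 and 6.27 CPM and at 8.32, 5.07 and 10.1 CPM, and Mybpc2 at 3.16, 3.45 and 6.59 CPM and at 7.42, 6.84 and 4.8 CPM. Groups overlapped for both, with log2 fold changes of 0.62 ± 0.34 and 0.53 ± 0.36.

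Most thin filament genes separated the groups, led by skeletal actin. Acta1, with 34.0 FPKM over all tumors the highest mean of the 37 genes, was at 38.1, 29.2 and 43.7 CPM in PBS tumors and at 84.2, 59.9 and 69.8 CPM in GB2 tumors. The lowest GB2 tumor was above the highest PBS tumor, and the log2 fold change was 0.95 ± 0.22 (95% interval 0.44 to 1.45, adjusted p = 0.276, edgeR). DESeq2 gave it an adjusted p of 0.0112 with a log2 fold change of 0.94, under the limit on fold. Of the 8 thin filament and troponin genes all 8 had a log2 fold change above 0 (beside 48.3% of all genes), with a median of 0.85. In 6 the groups did not overlap, beside 8.61% of all genes. Neb, the ruler protein along the filament, was among those 6, with a log2 fold change of 0.83 ± 0.27 (adjusted p = 0.538, edgeR).

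Each troponin subunit has a fast and a slow gene, and the fast one was the more abundant in every tumor. Tnnt3, the fast subunit that ties troponin to tropomyosin, was at 11.3, 9.56 and 17.1 CPM in PBS tumors and 24.2, 25.7 and 20.6 CPM in GB2 tumors. Its slow partner Tnnt1 was at 1.13, 1.70 and 1.99 CPM and at 2.04, 1.60 and 1.85 CPM. For Tnnt3 the groups were apart and for Tnnt1 they overlapped, with log2 fold changes of 0.89 ± 0.26 (adjusted p = 0.441, edgeR) and 0.18 ± 0.34 (adjusted p = 0.904, edgeR). In FPKM, Tnnt3 exceeded Tnnt1 7.97-fold to 22.7-fold over the 6 tumors.

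Tnni2 and Tnni1 encode the fast and slow inhibitory subunits. Tnni2 was at 3.26, 4.10 and 8.70 CPM in PBS tumors and at 10.3, 10.3 and 8.92 CPM in GB2 tumors. Tnni1 was at 0.693, 0.880 and 1.34 CPM and at 1.30, 1.43 and 1.28 CPM. The Tnni2 groups were apart by a small margin at PBS tumor 3, and the Tnni1 groups overlapped there, with log2 fold changes of 0.87 ± 0.38 and 0.46 ± 0.38. Tnnc2 and Tnnc1 encode the fast and slow calcium-binding subunits. Tnnc2 was at 3.52, 2.88 and 6.28 CPM and at 8.61, 7.24 and 7.54 CPM, and Tnnc1 at 0.693, 0.553 and 0.608 CPM and at 0.941, 1.30 and 0.988 CPM. Tnnc1 was the slow gene whose groups did not overlap, and the log2 fold changes were 0.88 ± 0.34 for Tnnc2 and 0.80 ± 0.37 for Tnnc1. Tnnc2 overlaps Ube2c on the opposite strand, at a mean of 42.0 FPKM against its own 7.25 FPKM. The libraries were stranded, the setting used in counting is not given in the sources used here, and a part of Ube2c in the Tnnc2 value was not tested.

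The genes of titin, the Z-disc and the intermediate filament held the largest differences and 5 of the 6 genes past the unadjusted limit with the fold. All 10 had a log2 fold change above 0 (beside 48.3% of all genes), with a median of 0.94. In 5 the groups did not overlap, beside 8.61% of all genes. Xirp1, the actin-binding Xin protein of muscle attachment sites, was at 0.169, 0.255 and 0.665 CPM in PBS tumors and at 4.59, 0.733 and 1.47 CPM in GB2 tumors. Csrp3, the muscle LIM protein of the Z-disc, was at 0.744, 0.653 and 0.948 CPM and at 5.13, 1.9 and 1.91 CPM. Both were highest by far in GB2 tumor 1, although each GB2 tumor exceeded each PBS tumor. The log2 fold change of Xirp1 was 2.63 ± 0.81 (adjusted p = 0.487, edgeR), 1.59 without GB2 tumor 1 and 3.40 without PBS tumor 3. That of Csrp3 was 1.93 ± 0.49 (adjusted p = 0.324, edgeR) and 1.28 without GB2 tumor 1. DESeq2 gave adjusted p values of 0.0514 for Xirp1 and 0.0155 for Csrp3.

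Des, Tcap and Actn3 were between 2.13-fold and 2.31-fold higher in GB2 tumors. Des, the desmin filament that links neighbouring Z-discs and is also made in smooth muscle, was at 10.2, 10.6 and 17.6 CPM in PBS tumors and at 30.0, 21.8 and 37.1 CPM in GB2 tumors. Tcap, the titin cap at the Z-disc, was at 0.727, 0.922 and 0.976 CPM and at 2.02, 1.76 and 1.82 CPM. Neither gene had overlapping groups, with log2 fold changes of 1.21 ± 0.30 for Des (adjusted p = 0.311, edgeR, and 0.0178, DESeq2) and 1.09 ± 0.32 for Tcap (adjusted p = 0.447, edgeR, and 0.0485, DESeq2). Actn3, the alpha-actinin of fast fibres, was at 3.01, 5.78 and 8.43 CPM and at 11.7, 11.1 and 14.2 CPM. Its relative Actn2, present in all fibres and in heart, was at 4.84, 2.64 and 3.71 CPM and at 7.72, 4.63 and 6.99 CPM. GB2 tumor 2 brought the Actn2 groups into overlap while the Actn3 groups stayed apart, with log2 fold changes of 1.10 ± 0.38 for Actn3 and 0.79 ± 0.33 for Actn2.

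Of the other genes of the sarcomere frame, Myoz1, Ldb3 and Trim63 were closer to even than Ttn. Ttn, titin, was at 15.6, 14.4 and 19.8 CPM in PBS tumors and at 33.1, 18.8 and 28.4 CPM in GB2 tumors. Its groups overlapped, and its log2 fold change was 0.69 ± 0.26, with a 95% interval from 0.08 to 1.29. By edgeR its unadjusted p was 0.031 and its adjusted p 0.654. Myoz1 and Ldb3, partners of alpha-actinin, had log2 fold changes of 0.28 ± 0.46 and 0.17 ± 0.27. Trim63, the ubiquitin ligase MuRF1 known from muscle wasting, had the highest FPKM of this group, 10.9 on average. It was at 45.2, 29.8 and 22.2 CPM and at 35.6, 34.9 and 28.0 CPM, so that GB2 tumors lay within the range of PBS tumors. Its log2 fold change of 0.02 ± 0.28 had a 95% interval from -0.62 to 0.66, and PBS tumor 3, high in many other muscle genes, was the lowest tumor for it.

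**Figure D3:**
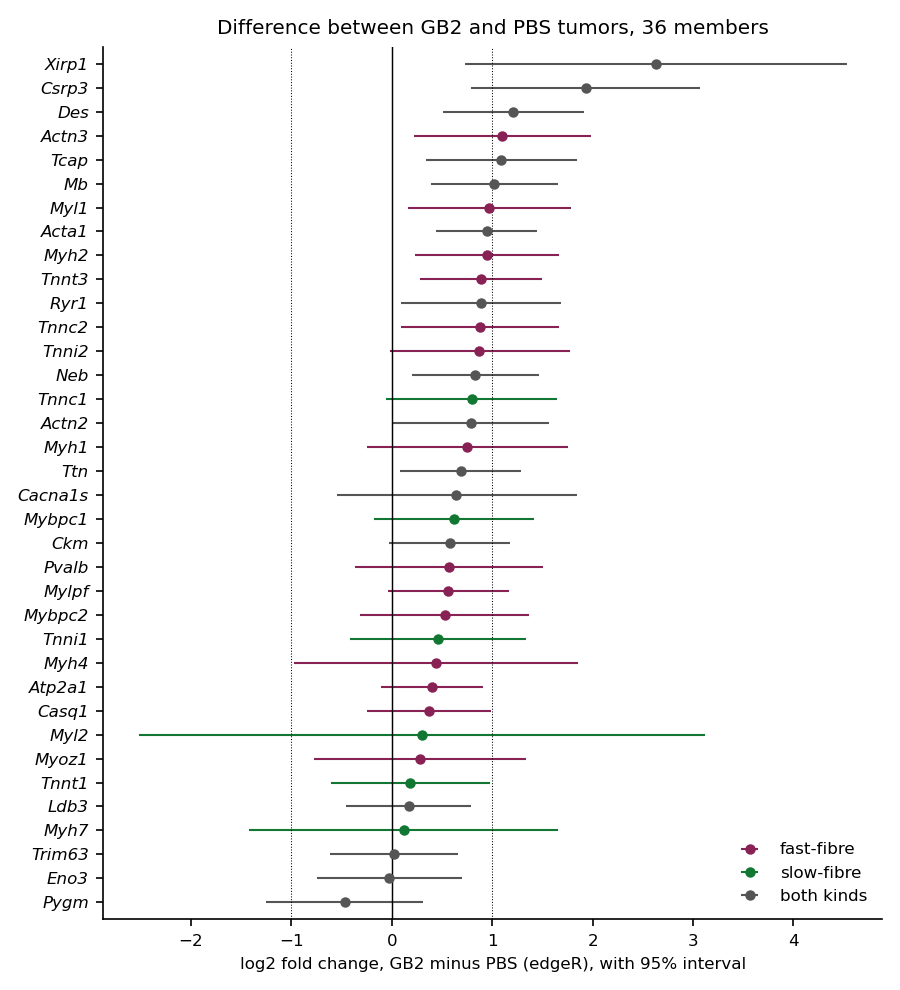
Fitted log2 fold change, GB2 minus PBS, of the 36 tested muscle genes with its 95% interval (edgeR), ordered by size and coloured by fibre kind, with dotted lines at a 2-fold difference. The values ran from 2.63 for Xirp1 to -0.47 for Pygm, and 34 of 36 lay above 0.

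Calcium handling genes had differences like those of the thick filament by median. All 5 had a log2 fold change above 0 (beside 48.3% of all genes), with a median of 0.57. Ryr1 was the gene among them with separate groups, beside 8.61% of all genes. Atp2a1, the SERCA1 pump that returns calcium in fast fibres, was the most abundant, at 27.5, 22.4 and 35.7 CPM in PBS tumors and 41.8, 38.5 and 32.9 CPM in GB2 tumors. Its groups overlapped at PBS tumor 3 and its log2 fold change was 0.40 ± 0.22 (95% interval -0.11 to 0.91). Ryr1, the release channel, was at 2.96, 3.95 and 5.59 CPM and at 7.30, 5.72 and 10.2 CPM, a log2 fold change of 0.89 ± 0.34 (adjusted p = 0.670, edgeR). Pvalb, the calcium buffer of the fastest fibres, was at 4.77, 4.24 and 9.27 CPM and at 7.81, 13.0 and 6.40 CPM. PBS tumor 3 and GB2 tumor 2, the tumors with the largest Myh4 shares, were also the highest for Pvalb in their groups. Casq1, which stores calcium, and Cacna1s, the voltage sensor, had log2 fold changes of 0.37 ± 0.26 and 0.64 ± 0.51, and that of Cacna1s was 1.37 without PBS tumor 3. Atp2a1 overlaps Rabep2 on the opposite strand, at 4.69 FPKM beside its own 9.15 FPKM.

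Energy and oxygen genes split. Mb, myoglobin, which stores oxygen in muscle, was at 1.76, 1.86 and 2.04 CPM in PBS tumors and at 3.48, 3.70 and 4.33 CPM in GB2 tumors. The lowest GB2 tumor was well above the highest PBS tumor, with a log2 fold change of 1.02 ± 0.27 (adjusted p = 0.352, edgeR, and 0.00775, DESeq2). Ckm, the muscle creatine kinase that buffers ATP, was at 14.5, 11.5 and 20.4 CPM and at 21.5, 27.0 and 20.6 CPM, with a log2 fold change of 0.58 ± 0.26. Eno3, the muscle enolase of glycolysis, was second to Acta1 in FPKM at 32.8 on average, and stood at 54.1, 43.6 and 83.1 CPM and at 42.3, 79.5 and 55.7 CPM. Pygm, the phosphorylase that breaks down muscle glycogen, was at 13.9, 17.5 and 33.0 CPM and at 13.4, 15.9 and 17.3 CPM. PBS tumor 3 was the highest tumor for both, and their log2 fold changes were -0.03 ± 0.31 (Eno3) and -0.47 ± 0.33 (Pygm), the latter -0.01 without PBS tumor 3. These were the 2 genes of the 36 with a value under 0, and Eno3 was at 0.02 when libraries were scaled by their totals only.

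The muscle transcripts had a fast-fibre makeup in each tumor. By median, the slow-fibre genes differed least between GB2 and PBS tumors, and by sum the genes of both fibre kinds did. The 14 fast-fibre genes had a median log2 fold change of 0.66, with 14 of 14 above 0, 7 with groups apart and 5 higher at an unadjusted p under 0.05. The 6 tested of 7 slow-fibre genes had a median of 0.38, with 6 of 6 above 0, 1 with groups apart and 0 at that p (beside 8.61% and 4.69% of all genes), and the 16 genes of both kinds had a median of 0.81. Fast genes summed to 45.7, 42.9 and 80.5 FPKM in PBS tumors and to 100, 98.5 and 87.0 FPKM in GB2 tumors. Slow genes summed to 2.29, 2.28 and 3.31 FPKM and to 4.04, 3.53 and 4.55 FPKM. The ratio of GB2 to PBS means was 1.69 for the fast sum, 1.54 for the slow sum and 1.42 for the sum of genes of both kinds. The slow sums did not overlap between the groups, and Mybpc1 alone went from 1.03 to 1.70 FPKM in them. The mean log2 CPM of the slow genes overlapped between the groups, at -0.12, -0.62 and 0.22 in PBS tumors and -0.24, 0.26 and 0.51 in GB2 tumors. The -0.24 of GB2 tumor 1 includes Myl2 at a count of 0, which lowers that mean.

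Whether the balance of fast to slow moved was read from the mean log2 CPM of the fast genes minus that of the slow genes. It was 2.74, 3.15 and 3.16 in PBS tumors and 3.95, 3.34 and 2.89 in GB2 tumors, with means of 3.01 ± 0.24 (SD, n = 3) and 3.39 ± 0.53 (SD, n = 3). GB2 tumor 3 lay within the range of the PBS tumors, and the distance of 0.38 was less than the spread of the GB2 group. Among the 6 slow genes averaged, Myl2 had a count of 0 in GB2 tumor 1. This floor value lowered the slow mean of that tumor and raised its balance of 3.95, and with it the distance and the GB2 spread. How far it did so was not tested. By gene pair, the FPKM of the fast gene exceeded that of the slow gene 11.3-fold to 19.4-fold for Tnni2 over Tnni1, 6.84-fold to 13.9-fold for Tnnc2 over Tnnc1 and 17.1-fold to 176-fold for Myh4 over Myh7. Mylpf exceeded Myl2 96.0-fold to 161-fold in the 5 tumors where Myl2 was above 0. The pairs Mybpc2 and Mybpc1, with ratios from 0.600 to 1.70, and Actn3 and Actn2, from 0.810 to 3.13, were closer to even. Mybpc1 and Actn2 are also made in fast fibres, so these pairs separate the fibre kinds less.

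Tumors kept a rough order across the genes. Of the 36 tested genes, 15 were highest in GB2 tumor 1, 9 in GB2 tumor 3, 7 in GB2 tumor 2, 4 in PBS tumor 3 and 1 in PBS tumor 1. The lowest value fell in PBS tumor 2 for 18 genes and in PBS tumor 1 for 14, while GB2 tumor 1 was the lowest for 3 and PBS tumor 3 for 1. The summed counts of the 37 genes were 20611, 20642 and 33291 in PBS tumors and 47295, 43965 and 44738 in GB2 tumors.

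A further 70 muscle genes were compared, and their structural genes were mostly higher in GB2 tumors while their energy genes were not. Of 24 other sarcomere genes, 23 had a log2 fold change above 0 (beside 48.3% of all genes), with a median of 0.92. At the unadjusted limit with the fold 8 were higher, beside 3.74% of all genes, and 0 passed the adjusted one. The highest among the 8 were Mybph at 2.60 ± 1.07 and Xirp2, the second Xin protein, at 2.24 ± 0.67, followed by Myoz2 at 1.97 ± 0.51, Pdlim3 at 1.51 ± 0.37 and Klhl40 at 1.41 ± 0.57. Xirp2 was at 2.16, 1.60 and 4.64 CPM in PBS tumors and at 25.3, 4.69 and 9.83 CPM in GB2 tumors, highest in GB2 tumor 1 as was Xirp1, and its log2 fold change ran from 1.37 to 2.82 with 1 tumor left out. The abundant members of this list, which many cells make, were closer to even, with Tpm1 at 0.02 ± 0.25, Tmod1 at 0.32 ± 0.47 and Tpm2 at 0.44 ± 0.22.

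Of 17 tested other genes of excitation and calcium, 13 were above 0 (beside 48.3% of all genes), with a median of 0.58. At the unadjusted limit with the fold 2 were higher, beside 3.74% of all genes. Cacng1, a subunit of the voltage-gated channel, was at 0.220, 0 and 0.0424 CPM in PBS tumors and at 0.619, 0.938 and 1.27 CPM in GB2 tumors. Casq2, the cardiac and slow calsequestrin, had a log2 fold change of 1.02 ± 0.38. The abundant Atp2a2, Srl and Jph2 were at 0.31 ± 0.23, 0.40 ± 0.36 and 0.16 ± 0.35. Of 14 other muscle energy genes, 6 were above 0 and 8 below, with a median of -0.03, and 0 passed in either direction. The abundant ones, Ldhb, Pfkm and Phka1, were at -0.28 ± 0.19, -0.07 ± 0.31 and -0.02 ± 0.22.

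Regulators and immature forms of muscle included some of the larger differences. Myog, myogenin, which drives the step from dividing myoblast to fibre, had counts of 8, 12 and 28 in PBS tumors and of 211, 79 and 194 in GB2 tumors. Its CPM were 0.135, 0.170 and 0.396 against 2.51, 0.95 and 2.28, with no overlap. The log2 fold change was 3.02 ± 0.60 (adjusted p = 0.234, edgeR, and 0.000426, DESeq2). Myh8, the perinatal myosin heavy chain, was at 1.15, 1.06 and 1.53 CPM and at 2.24, 3.31 and 3.20 CPM. Its groups were also apart, with a log2 fold change of 1.22 ± 0.33 (adjusted p = 0.360, edgeR, and 0.0252, DESeq2). Of the 11 tested genes of this list 8 were above 0 (beside 48.3% of all genes), with a median of 1.22. Myog and Myh8 were the 2 higher at the unadjusted limit with the fold, beside 3.74% of all genes.

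Myh3, Myod1 and Myf6, outside the rule for naming, were picked after their values were seen, as relatives of Myog and Myh8. Myh3, the embryonic heavy chain, had a log2 fold change of 1.40 ± 0.62 (0.93 to 2.28 with 1 tumor left out) and Myod1 one of 1.43 ± 0.77 (0.79 to 2.2). Myf6 was at 0, 0 and 0.283 CPM in PBS tumors and at 0.619, 0.457 and 1.01 CPM in GB2 tumors, so its fold rests on 1 PBS tumor and is not given. None of these passed the unadjusted limit. Not every regulator was higher. Pax3, a regulator of muscle precursors and also of pigment cells, whose genes were abundant here, was at 222, 181 and 147 CPM and at 178, 199 and 167 CPM, and Mef2c had a log2 fold change of 0.17 ± 0.19. The defining genes of resting muscle stem cells were at or near 0, with Myf5 at 0 in 6 tumors and Pax7 at 0 in 5.

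**Figure D4:**
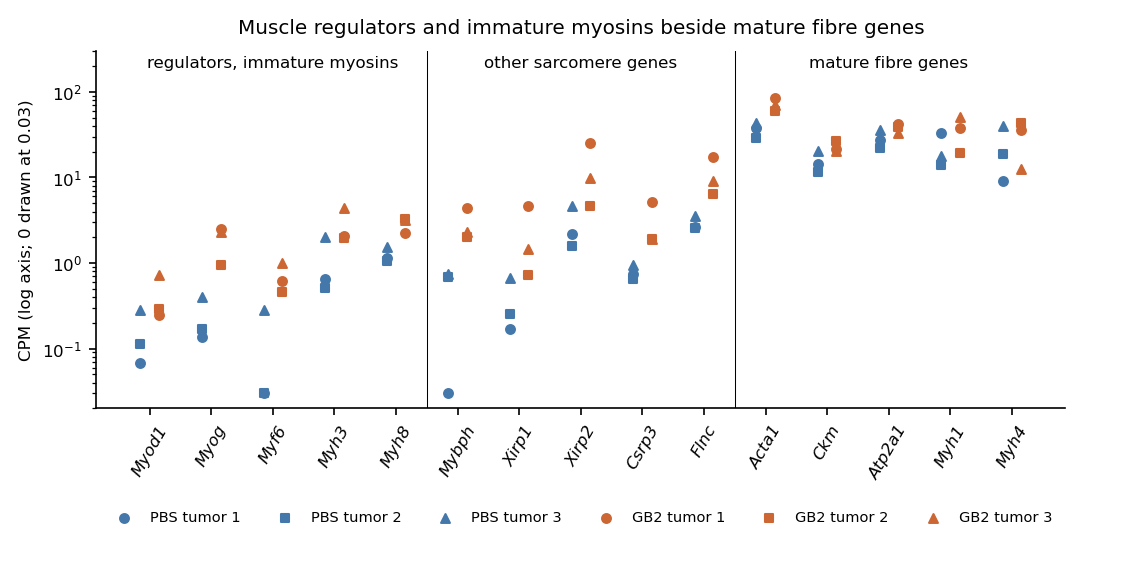
CPM (log axis, values of 0 drawn at 0.03) in each tumor of 5 regulators and immature myosins, of 5 other sarcomere genes and of 5 mature fibre genes, chosen after their values were seen. Myog was at 0.135 to 0.396 CPM in PBS tumors and 0.95 to 2.51 CPM in GB2 tumors, while Myh1 and Myh4 overlapped between the groups.

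Among 19 relatives of the muscle genes, most of them widely expressed, the median log2 fold change was 0.19 and 13 were above 0. The list also held the muscle genes Flnc, Trim54 (1.29 ± 0.51), Trim55 (1.57 ± 1.06) and Fbxo32 (0.31 ± 0.28). The median is thus not that of widely expressed genes alone. Flnc, the muscle filamin that binds the Xin proteins, was the highest of the 19, at 2.62, 2.60 and 3.54 CPM in PBS tumors and at 17.2, 6.48 and 9.06 CPM in GB2 tumors. The groups were apart, with a log2 fold change of 1.9 ± 0.40 (adjusted p = 0.235, edgeR, and 0.000704, DESeq2). Xirp1, Xirp2, Csrp3 and Flnc were thus each highest in GB2 tumor 1.

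Markers of other cell types differed between the groups as well. All 10 macrophage markers were higher in GB2 tumors with groups apart, beside 8.61% of all genes. Their summed level was 43.9 to 60.5 FPKM in PBS and 172 to 238 FPKM in GB2 tumors. All 8 fibroblast markers were likewise higher, at 35.2 to 63.7 FPKM and 119 to 177 FPKM in sum. The medians of 1.98 and 1.5 were above that of the muscle genes, 0.67, and no marker of either list passed the adjusted limit by edgeR. Endothelial markers had a median of 1.26, with 7 of 8 above 0, and summed to 28.8 to 59.7 FPKM and 64.5 to 74.1 FPKM. Within groups the macrophage and fibroblast sums were not ordered as the muscle sum in FPKM. The endothelial sums were 74.1, 70.6 and 64.5 FPKM in GB2 tumors, in the order of the muscle sums there. In PBS tumors they were 28.8, 59.7 and 55.1 FPKM, in another order. PBS tumor 3 had the most muscle transcript of its group and the least fibroblast sum. GB2 tumor 3 had the largest macrophage and fibroblast sums and the least muscle FPKM of its group. That last rank depended on the measure, since the mean log2 CPM of the muscle genes was 2.93, 2.79 and 2.87 in GB2 tumors, least in GB2 tumor 2. The part of these cell types in the muscle values was not tested.

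Markers of tissues next to a flank tumor were also compared. Adipocyte markers were above 0 in 10 of 10 cases, with a median log2 fold change of 0.69, and summed to 26.1, 27.4 and 5.45 FPKM in PBS tumors and to 38.9, 27.4 and 35.5 FPKM in GB2 tumors. Keratinocyte and skin markers were above 0 in 9 of 10, with a median of 0.60, and summed to 44.3, 24.9 and 17.9 FPKM and to 43.9, 49.6 and 70.5 FPKM. PBS tumor 3 had the least of both and the most muscle transcript of its group, so these tissues did not follow the muscle genes in that tumor. No marker of either list was at 0 in all tumors, and their part in the muscle values was not tested.

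Markers of other muscle kinds had medians nearer to 0. Smooth muscle and pericyte markers summed to 32.2, 45.7 and 30.8 FPKM in PBS tumors and to 49.4, 38.2 and 52.8 FPKM in GB2 tumors, with a median log2 fold change of 0.24 and 8 of 10 above 0. Pdgfrb, the pericyte receptor, was the 1 marker of these past the unadjusted limit with the fold, at 1.11 ± 0.37, beside 3.74% of all genes. Cardiac markers had a median of 0.17, with 3 of 6 tested above 0. Nerve and Schwann cell markers had a median of -0.03, with 4 of 8 above 0, and summed to 223, 357 and 390 FPKM in PBS tumors and to 302, 332 and 312 FPKM in GB2 tumors, above the muscle sum in all 6 tumors. Sox10, S100b (70.6 FPKM on average) and Mbp (50.3 FPKM) made up most of that sum, and pigment cells are known to express Sox10 and S100b too. Epithelial markers had a median of 0.41, with 5 of 5 tested above 0.

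**Figure D5:**
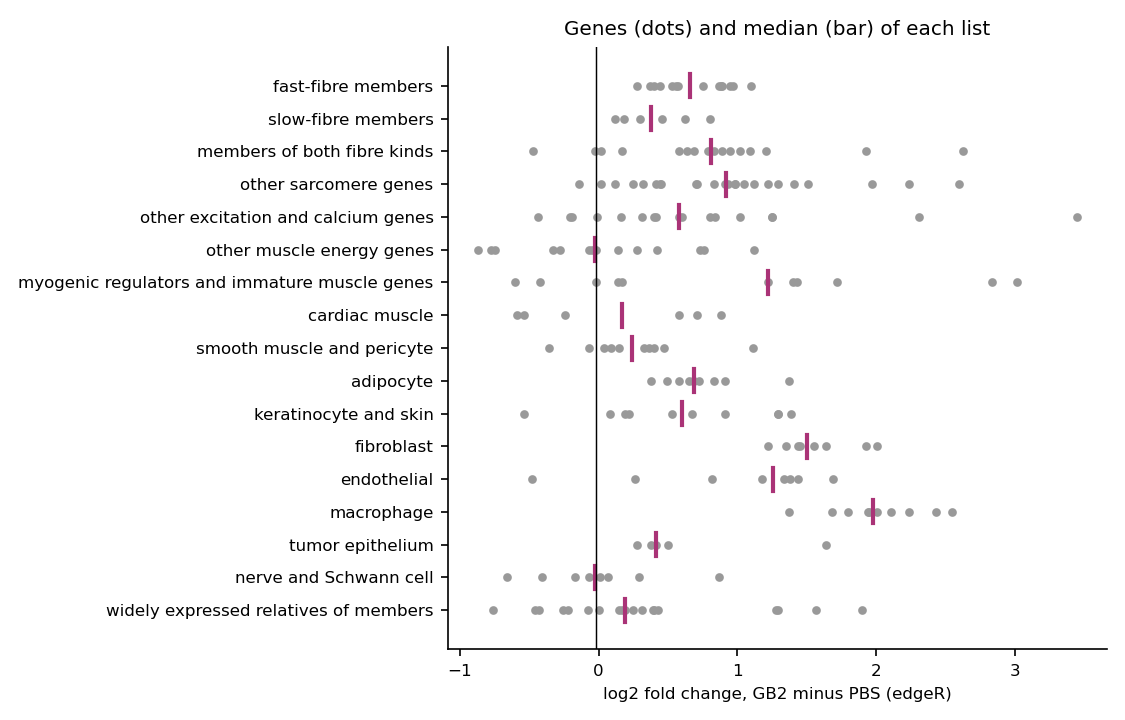
Fitted log2 fold change, GB2 minus PBS (edgeR), of each tested gene (dots) and the median (bar) of each list, with a vertical line at the median of all 19602 genes. Medians ran from -0.03 for other muscle energy genes to 1.98 for macrophage markers, and the fast-fibre and slow-fibre genes had 0.66 and 0.38.

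Outside all lists, the genes whose log2 CPM over the 6 tumors most resembled the mean of the 36 muscle genes were Scn4b, St8sia2, Trim34b, Ctsk, Ggt5, Rap1gap2, Pcdhgb7, Zfp35, Zrsr1 and Trpc6. Pearson's r ran from 0.994 for Scn4b, a sodium channel subunit, to 0.981 for Trpc6. The 6 points include both treatment groups, so a difference between groups enters r, and 61 of 19406 genes (0.314%) reached 0.95. Ctsk, the cathepsin K protease, was the most abundant of the 10, at 12, 10.4 and 21.5 CPM in PBS tumors and 28.9, 26.5 and 23.5 CPM in GB2 tumors. As in the muscle sum, PBS tumor 3 was the highest of its group and below all GB2 tumors. The genes were picked by r, so a shared order of tumors follows from that choice. St8sia2, Trim34b, Pcdhgb7 and Trpc6 were at 0 CPM in PBS tumors 1 and 2, near the floor.

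Some of these genes share sequence with close relatives, which limits how their reads can be split. In windows of 50 bases of the transcript, 26.7% of Myh1, 26.9% of Myh2, 18.9% of Myh4 and 22.2% of Myh7 occurred in another gene of the GRCm38 annotation. In windows of 150 bases, the read length, the shares were 2.49%, 2.06%, 0.511% and 5.43%. Myl1 shared 23.4% of its 50-base windows with its pseudogene copy Mylf-ps, and 1.93% at 150 bases. The other genes were at or under 2.22% at 50 bases.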

How the data were processed

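RNA was poly-A selected and sequenced as stranded paired-end libraries from 3 PBS and 3 GB2 tumors. The authors deposited, in 1 table, estimated counts per gene, whole numbers not scaled between tumors, and FPKM values, scaled by transcript length and library total. The submitters' processing notes name cutadapt 1.9, HISAT2 2.2.1, StringTie 2.1.6, DESeq2, edgeR and mm10. Start and end matched the GRCm38 annotation for 641 of 31999 common gene IDs (2.00%), so the build of the table's positions is not settled. No per-sample column was unused, and the table holds no other samples.

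The test was edgeR 4.0.16 in R 4.3.3, with filterByExpr with a minimum count of 10, TMM, glmQLFit, glmQLFTest and Benjamini-Hochberg adjustment over all 19602 genes tested. The prior count was 2, and standard errors came from the test statistic. The common dispersion was 0.164, or a 40.5% coefficient of variation within a group. Alternatives used DESeq2 1.42.0, limma 3.58.1 on log2(FPKM + 1) and log2(FPKM + 0.1), other scalings and filters, and each tumor left out, 15 in all. With 3 tumors against 3, an exact permutation test cannot go below p = 0.1, so none is given.

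The members and lists were chosen with earlier results of these data known. Named were all members, by role, and from each further list its 3 genes of highest mean FPKM and up to 5 past an unadjusted p of 0.05 and a fold of 2. The rule was kept for the lists on muscle, and the lists of other cell types and of relatives are given by counts, medians and sums. In these, Pdgfrb and Flnc are named for their size, and Trim54, Trim55 and Fbxo32 as muscle genes. Sox10, S100b and Mbp are named for their share of a sum. 1 gene that the rule names is not reported here. Fibre kind and role were assigned from general knowledge. Promoters came from the RefSeq table of GRCm38.p6, and shared windows from the GRCm38 transcripts.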

Additional observations from a re-analysis of the deposited data

How the results depend on the processing

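By edgeR, 0 muscle genes and 0 of all genes were called in the main analysis and without any single tumor. DESeq2 called 385 of all genes and 4 of the muscle genes. At an unadjusted p under 0.05 and a fold of 2, 733 genes were higher and 180 lower. The number lower was 338 with no filter on low counts and 117 with a minimum count of 40, and leaving out 1 tumor gave 123 to 548 lower (310 without PBS tumor 2, 548 without PBS tumor 3) and 503 to 950 higher. On log2(FPKM + 1), limma gave 95 higher and 36 lower. The 6 muscle genes higher at that limit became 5 to 16 with 1 tumor left out (16 without PBS tumor 3, 10 without GB2 tumor 2), 1 (Des) by limma on log2(FPKM + 1), and 11 by limma on log2(FPKM + 0.1). The pseudocount of 1 is large beside genes at this FPKM. For the pseudocount of 0.1, the number over all genes is not given here, so the 11 has no share beside it. All 6 were among the 16 and the 10, 5 of 6 remained without GB2 tumor 1, and 3 of 6 (Csrp3, Des and Xirp1) without PBS tumor 1.

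The median log2 fold change of the muscle genes was 0.48 to 0.89 with 1 tumor left out, that of the fast genes 0.45 to 1.01 and that of the slow genes 0.29 to 0.67. The balance of fast minus slow genes, 0.38 from mean log2 CPM, was 0.10 to 0.63 with 1 tumor left out. For other settings it was taken from the mean fitted log2 fold changes, a different measure. On that measure it was 0.27 by DESeq2 and -0.29 with no filter, which adds Myl3, at 0 in 5 tumors. The -0.29 is thus not to be set against 0.38. Of 534 values of single muscle genes under the 15 alternatives, 518 kept their direction. The other 16 came from 5 genes near 0. Eno3 was 0.02 with library totals only, 0.05 by limma with either pseudocount, and 0.28, 0.17 and 0.02 without PBS tumor 3, GB2 tumor 1 and GB2 tumor 3, with a range of -0.29 to 0.28 over the tumors left out. Trim63 was -0.03, -0.19, -0.04 and -0.02 without PBS tumors 2 and 3 and GB2 tumors 1 and 2 (range -0.19 to 0.35). Myh7 was -0.34 and -0.12 without PBS tumor 2 and GB2 tumor 3 (range -0.34 to 0.57). Myl2 was -0.0047 and -0.20 without GB2 tumors 2 and 3 (range -0.20 to 0.89), and Tnnt1 was -0.0034 without PBS tumor 1 (range to 0.37). The causes were not tested.

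Tumors with the same number share only that number: the correlations of their deviations from the group means were 0.03, 0.15 and -0.24. With the tumor number as a replicate block, 0 muscle genes were called, the median was 0.70 and Myl2 was -0.25. At the unadjusted limit with the fold 8 were higher, and the number over all genes with this block is not given here. The 3 tumors per group, with the spread between them, limit what could be called, and genes at a few read pairs, such as Myl2, Myl3 and Cacng1, carry a large counting error.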
